A study of Homo sapiens with 6 samples.

Results

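The BCL2 family genes described here are 10 genes that set whether a cell survives or enters apoptosis: BCL2, MCL1, BCL2L1, BCL2A1, BCL2L11, BAX, BAK1, BBC3, PMAIP1 and BID. They were listed by name, with earlier results of these data known, and were found in the count tables by Ensembl ID among 60612 genes. All 10 passed the filter on low counts, out of 15395 genes tested. RNA was measured by sequencing in KO52, an established acute myeloid leukemia (AML) cell line whose genotype is CEBPA double mutant. The cells had been transduced with a doxycycline-inducible lentiviral vector. In the dnCEBP group it encoded a dominant negative C/EBP peptide, in the dnFOS group a dominant negative FOS peptide, and the EV group carried the empty vector. Each group held 2 libraries. All 3 groups shared the CEBPA double mutant genotype, the vector backbone and, per the study's methods, doxycycline treatment and a sort for GFP-positive cells. C/EBP and AP-1 factors sit on DNA as dimers, and a dimer that includes a peptide does not; since each peptide can join many partners, an effect cannot be assigned to 1 factor. The length of induction before RNA extraction was not given in the sources used here, and KO52 is a single line.

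Proteins of the BCL2 family act at the outer membrane of mitochondria. Survival proteins, encoded by BCL2, MCL1, BCL2L1 (BCL-XL) and BCL2A1 (A1), hold back the effectors BAX and BAK1, which form pores in that membrane and release cytochrome c. BH3-only proteins, encoded by BCL2L11 (BIM), BBC3 (PUMA), PMAIP1 (NOXA) and BID, bind the survival proteins or activate the effectors. Many AML cells depend on BCL2 or MCL1, and BCL2 is the target of venetoclax. Much of the control of this family acts on the proteins, which were not measured here.

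In dnCEBP 1 of the 10 genes was called against EV, and it rose: BCL2L1, the gene for BCL-XL, with a fold change of 1.43. In dnFOS 3 of the 10 were called. BCL2 rose, with a fold change of 1.4, while BCL2A1 was 1.86-fold lower and the PUMA gene BBC3 2.71-fold lower. A gene was called where edgeR's quasi-likelihood test gave a Benjamini-Hochberg adjusted p under 0.05, the adjustment covering all 15395 genes. By the same rule 1.07% of all genes tested were called in dnCEBP (0.624% higher and 0.448% lower) and 15.0% in dnFOS (7.24% higher and 7.76% lower). The MCL1 transcript, and those of both effectors, passed the test in neither comparison. The values below are CPM, the counts scaled to library size by TMM, and the plot of CPM by library shows each gene.

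**Figure D1:**
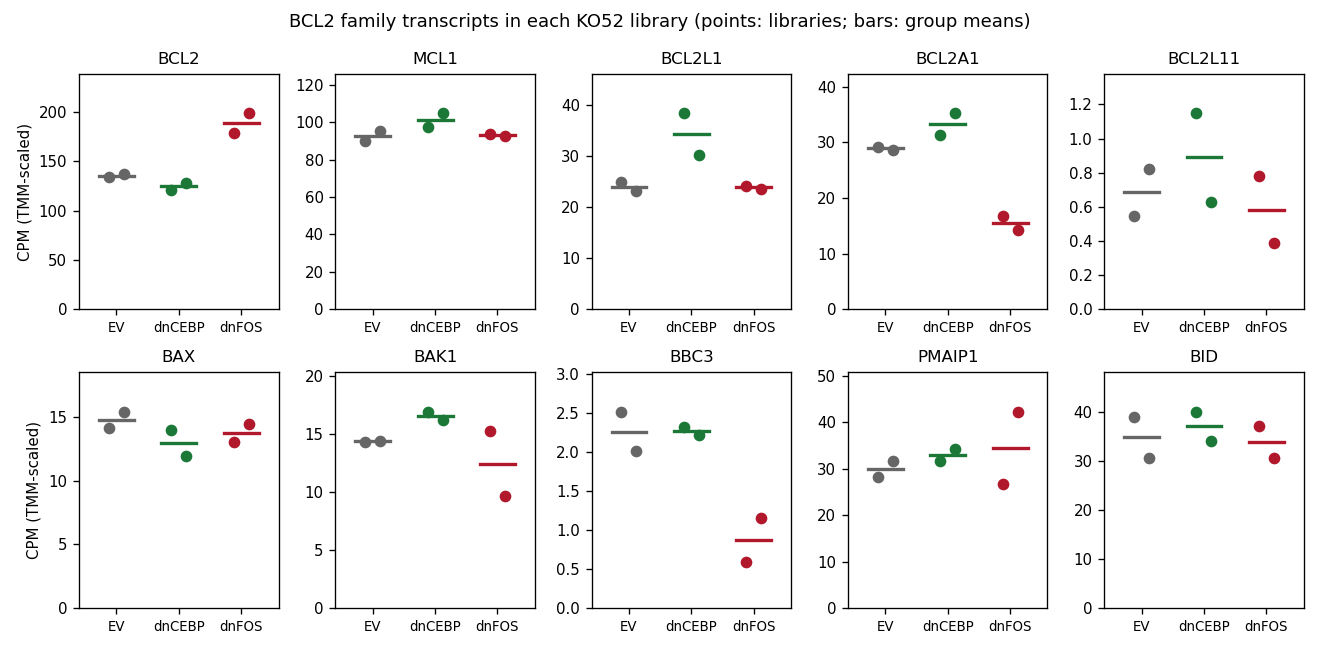
CPM of each BCL2 family gene in the 6 KO52 libraries, with points for the 2 libraries of EV (grey), dnCEBP (green) and dnFOS (red), and bars for group means; each vertical axis starts at 0 and has its own scale. The dnFOS points of BCL2 (179 and 199 CPM) lie above, and those of BCL2A1 (16.7 and 14.3 CPM) below, all 4 points of the other groups.

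Total counts ran from 21681121 to 27663179 in the dnCEBP and EV libraries, and were 14583615 and 9862994 in dnFOS. Depth and the dnFOS group therefore cannot be told apart. A count of 3, taken as the floor, corresponded to between 0.108 and 0.304 CPM, depending on the library. These floors were scaled by library totals, without the TMM factors (0.956 to 1.05), and cover counting error only. In every group the 2 replicates were further apart than sampling noise (chi-square per degree of freedom 8.05 in EV, 9.06 in dnCEBP and 14.4 in dnFOS). Nothing in the labels says that replicates came from separate cultures, so p-values measure the spread between these libraries, which may be technical. All 9 markers of myeloid blasts were above 1 CPM in every library, with a summed level of 1160 to 1240 CPM in EV, 1060 CPM in dnCEBP and 935 to 975 CPM in dnFOS. In dnCEBP 3 of the 9 were called lower against EV and 0 higher, beside 0.448% and 0.624% of all genes. They were MPO (239 and 194 CPM in EV, 63.5 and 53 CPM in dnCEBP), CSF3R and ANPEP, and 6 were not called. In dnFOS 4 were called lower, 0 higher and 5 not, beside 7.76% of all genes lower and 7.24% higher. Of 4 T cell markers, CD3D and CD2 were above 1 CPM in every library, and the summed level of the 4 was 117 to 124 CPM in EV, 146 to 150 CPM in dnCEBP and 91.8 to 106 CPM in dnFOS, almost all of it CD3D. EPCAM, KRT8 and KRT18 of 5 epithelial markers were also above 1 CPM in every library (67.3 to 87.6 CPM for the list, with CDH1 at 0). No marker on the B cell, erythroid or fibroblast lists passed 1 CPM in every library. The part of these differences in the results below was not tested, and in bulk RNA fewer cells of a type and less RNA per cell cannot be told apart.

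BCL2 (ENSG00000171791; GRCh38 chromosome 18, 63123346 to 63320128, minus strand) encodes the founding survival protein of the family. It had 134 and 137 CPM in the EV libraries, 121 and 128 CPM in dnCEBP and 179 and 199 CPM in dnFOS, from 2062 counts in the shallowest library to 3266 in the deepest. The dnFOS values lay above all others, and the dnCEBP values just below EV, with no overlap between any of the groups. The log2 fold change of BCL2 in dnFOS was 0.48 ± 0.09 (SE; 95% interval 0.31 to 0.66; edgeR adjusted p = 0.000274). In dnCEBP the log2 fold change was -0.12 ± 0.09 (95% interval -0.3 to 0.05; edgeR adjusted p = 0.609). Compared directly, dnFOS was higher than dnCEBP by 0.60 ± 0.09 (edgeR adjusted p = 9.24e-06). The dnFOS call against EV held in 15 of 15 alternatives, with log2 fold changes of 0.403 to 0.556 when 1 library was left out and adjusted p of 1.58e-05 to 0.00742.

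MCL1 (ENSG00000143384; chromosome 1, 150574551 to 150579738, minus strand) encodes a survival protein with a short half-life. Its level was 90.2 and 95.4 CPM in EV, 97.7 and 105 CPM in dnCEBP and 93.5 and 92.5 CPM in dnFOS. The dnFOS libraries lay within the EV range, and both dnCEBP libraries above it. By edgeR the log2 fold change was 0.13 ± 0.08 in dnCEBP (95% interval -0.05 to 0.3; adjusted p = 0.593) and 0.00 ± 0.09 in dnFOS (95% interval -0.17 to 0.18; adjusted p = 0.984). These intervals leave room for changes of MCL1 RNA of up to about 0.3 on the log2 scale in dnCEBP.

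BCL2L1 (ENSG00000171552; chromosome 20, 31664452 to 31723989, minus strand) encodes the survival protein BCL-XL and, by alternative splicing, the shorter BCL-XS, which gene counts do not separate. It had 24.8 and 23.2 CPM in EV, 38.4 and 30.2 CPM in dnCEBP and 24.2 and 23.6 CPM in dnFOS. Both dnCEBP libraries were above the other 4, though they differed from each other more than the EV or dnFOS pairs did, and the dnFOS libraries lay inside the EV range. The log2 fold change in dnCEBP was 0.52 ± 0.13 (SE; 95% interval 0.26 to 0.78; edgeR adjusted p = 0.0306), and in dnFOS 0.00 ± 0.13 (95% interval -0.28 to 0.27; adjusted p = 0.987). The difference between the peptides itself passed the test, with BCL2L1 lower in dnFOS than in dnCEBP by 0.52 (log2 fold change -0.52 ± 0.13, edgeR adjusted p = 0.00598). The dnCEBP call did not hold with libraries scaled by totals alone (adjusted p = 0.0735), or without dnCEBP replicate 1 (log2 fold change 0.332, adjusted p = 0.28), EV replicate 1 (0.57, adjusted p = 0.0912) or EV replicate 2 (0.464, adjusted p = 0.242). The call between the peptides was lost without dnCEBP replicate 1 (log2 fold change -0.337, edgeR adjusted p = 0.179). Of its exon bases 43.0% overlap the antisense gene ABALON, which had 0 to 9 counts per library, and whether counting used strand was not given in the sources used here.

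BCL2A1 (ENSG00000140379; chromosome 15, 79960889 to 79971446, minus strand) encodes A1, a survival protein of blood cells and a known target of NF-kappaB. It had 29.2 and 28.7 CPM in EV, 31.4 and 35.3 CPM in dnCEBP and 16.7 and 14.3 CPM in dnFOS, the last pair from 256 and 148 counts. Both dnFOS libraries were far below the other 4, and the 2 dnCEBP libraries were slightly above EV. In dnFOS the log2 fold change against EV was -0.89 ± 0.13 (SE; 95% interval -1.16 to -0.62; edgeR adjusted p = 3.07e-05), and against dnCEBP -1.10 ± 0.13 (adjusted p = 6.74e-07). In dnCEBP it was 0.20 ± 0.12 (95% interval -0.04 to 0.45; edgeR adjusted p = 0.545). The dnFOS call held in 15 of 15 alternatives, with log2 fold changes between -1.017 and -0.796 when 1 library was left out.

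Levels of different genes were set side by side only per length, as CPM per kb of merged exon length. In EV the survival genes ran, from the top, BCL2A1 (26.6), MCL1 (21.2), BCL2 (11.5) and BCL2L1 (7.24 CPM per kb), with no overlap between neighbours. In dnFOS the order by merged exon length was MCL1 (21.3), BCL2 (16.1), BCL2A1 (14.2) and BCL2L1 (7.21 CPM per kb), and the libraries of BCL2 and BCL2A1 overlapped. In dnCEBP BCL2A1 (30.6) and MCL1 (23.2) led again, and BCL2 (10.6) and BCL2L1 (10.4 CPM per kb) overlapped. PMAIP1 came next to BCL2 among the other genes, with 13.4 CPM per kb in EV, 14.7 in dnCEBP and 15.5 in dnFOS. BID (7.82 CPM per kb in EV), BAK1 (6.49) and BAX (5.70) followed, and BBC3 (0.713) and BCL2L11 (0.103) were the lowest of the 10 in every group. In EV the libraries of BID overlapped those of BCL2L1, and in dnCEBP those of BAK1. In dnFOS the libraries of BCL2 and PMAIP1, PMAIP1 and BCL2A1, BID and BCL2L1, and BAK1 and BAX overlapped. Among 15222 tested genes with a length, the mean level of BCL2A1 stood at the percentile 92.8, that of BBC3 at 19.2 and that of BCL2L11 at 3.05.

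BCL2A1 made up 39.9% ± 0.669 of the summed survival-gene level in EV (SD, n = 2), 40.9% ± 2.08 in dnCEBP and 24.2% ± 2.35 in dnFOS. The share of BCL2 was 17.3% ± 0.129 in EV, 14.2% ± 0.144 in dnCEBP and 27.4% ± 2.34 in dnFOS. MCL1 held 31.9% ± 1.13, 31.0% ± 0.56 and 36.2% ± 0.111 in the same order. These shares and the order of the genes rested on the length used. With the longest transcript as gene length, BCL2 held 23.0% in EV, 19.0% in dnCEBP and 34.7% in dnFOS, BCL2A1 35.5%, 36.7% and 20.5%, and MCL1 29.9%, 29.3% and 32.3%. On that length BCL2 stood above MCL1 in dnFOS, while BCL2A1 remained above MCL1 and BCL2 in EV and dnCEBP. The summed level of the survival genes reached 66.6 ± 0.312 CPM per kb in EV (SD, n = 2), against 74.7 ± 2.34 with dnCEBP and 58.8 ± 0.618 with dnFOS, with no overlap between groups. In the same order the effector sum was 12.2 ± 0.384, 12.5 ± 0.814 and 10.9 ± 1.36 CPM per kb. The BH3-only sum was 22 ± 0.286, 23.9 ± 0.24 and 23.4 ± 3.92 CPM per kb. Survival genes thus held 66.1% ± 0.0408, 67.3% ± 1.33 and 63.2% ± 1.98 of the summed level of all 10. These shares and sums are given as a description and were not tested.

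**Figure D2:**
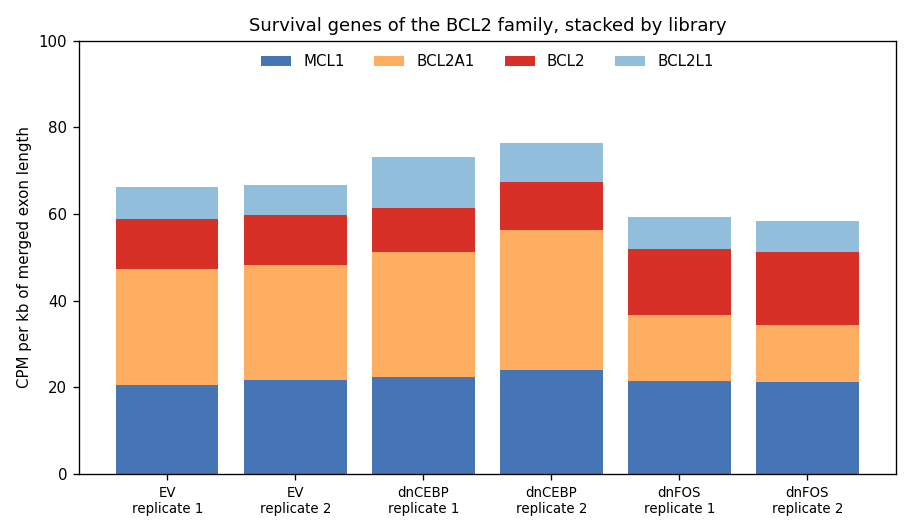
Summed level of the survival genes in each library, in CPM per kb of merged exon length, stacked by gene. The BCL2A1 segment is 24.2% of the stack on average in dnFOS against 39.9% in EV, and the BCL2 segment 27.4% against 17.3%.

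The effector genes BAX and BAK1 encode the pore-forming proteins. BAX (ENSG00000087088; chromosome 19, 48954815 to 48961798, plus strand) had 14.1 and 15.4 CPM in EV, 14.0 and 11.9 CPM in dnCEBP and 13.0 and 14.4 CPM in dnFOS. The groups lay close together, and only the dnCEBP and EV pairs did not overlap. The log2 fold change of BAX by edgeR was -0.18 ± 0.15 in dnCEBP (95% interval -0.5 to 0.13; adjusted p = 0.687) and -0.11 ± 0.16 in dnFOS (95% interval -0.44 to 0.21; adjusted p = 0.7). BAK1 (ENSG00000030110; chromosome 6, 33572547 to 33580293, minus strand) had 14.3 and 14.4 CPM in EV, 16.9 and 16.2 CPM in dnCEBP and 15.2 and 9.67 CPM in dnFOS. The dnFOS libraries of BAK1 disagreed, 1 above and 1 below EV. Its log2 fold change by edgeR was 0.20 ± 0.16 in dnCEBP (adjusted p = 0.665) and -0.18 ± 0.17 in dnFOS (adjusted p = 0.528). Between the peptides it was -0.39 ± 0.17 in dnFOS against dnCEBP (edgeR adjusted p = 0.131), and passed the threshold only when dnFOS replicate 1 was left out (-0.775, adjusted p = 0.00818). BAK1 has the pseudogenes BAK1P1 and BAK1P2, and how reads shared with them were counted was not given.

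Among the BH3-only genes, BBC3 (ENSG00000105327; chromosome 19, 47220822 to 47232766, minus strand) encodes PUMA, which binds every survival protein of the family. It was a low-count gene, counted 60 and 44 times in the EV libraries, 63 and 46 times in those of dnCEBP and 9 and 12 times in those of dnFOS. Scaled to depth, EV had 2.52 and 2.01 CPM, dnCEBP 2.33 and 2.22 CPM and dnFOS 0.586 and 1.16 CPM. The dnFOS libraries were both below the other 4, and the second was almost 2-fold the first. Both were above their floors, 0.206 and 0.304 CPM by library totals. The dnCEBP libraries lay within the EV range. In dnFOS the log2 fold change against EV was -1.44 ± 0.43 (SE; 95% interval -2.31 to -0.57; edgeR adjusted p = 0.0201), and against dnCEBP -1.44 ± 0.42 (adjusted p = 0.0194). In dnCEBP it was 0.01 ± 0.34 (95% interval -0.69 to 0.7; edgeR adjusted p = 0.995). The dnFOS call against EV was lost with limma-voom (adjusted p = 0.0542) and without EV replicate 1 (log2 fold change -1.268, adjusted p = 0.122). Leaving out dnFOS replicate 1 ended it too (log2 fold change -0.965, edgeR adjusted p = 0.237), as did removing a trend on GC content and length (-1.136, adjusted p = 0.0763). The longest transcript of BBC3 is 69.7% GC, the highest of the 10 genes by that measure. The call between the peptides was lost with DESeq2 (adjusted p = 0.0503) and limma-voom (0.0505), and without dnCEBP replicate 1 (0.093), dnCEBP replicate 2 (0.0573) or dnFOS replicate 1 (log2 fold change -0.97, adjusted p = 0.242).

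PMAIP1 (ENSG00000141682; chromosome 18, 59899948 to 59904306, plus strand) encodes NOXA, which binds MCL1 and A1. It had 28.2 and 31.7 CPM in EV, 31.7 and 34.2 CPM in dnCEBP and 26.8 and 42.3 CPM in dnFOS. The dnFOS libraries enclosed all others. Its log2 fold change by edgeR was 0.14 ± 0.15 in dnCEBP (adjusted p = 0.783) and 0.19 ± 0.15 in dnFOS (adjusted p = 0.457), the second turning to -0.156 without dnFOS replicate 2 and called without dnFOS replicate 1 (0.499, adjusted p = 0.00962). BID (ENSG00000015475; chromosome 22, 17734138 to 17774770, minus strand), whose protein is cleaved by caspase-8 and links death receptors to mitochondria, had 38.9 and 30.6 CPM in EV, 40.0 and 34.0 CPM in dnCEBP and 37.1 and 30.6 CPM in dnFOS. All groups of BID overlapped, and the edgeR log2 fold change was 0.09 ± 0.13 in dnCEBP (adjusted p = 0.849) and -0.03 ± 0.13 in dnFOS (adjusted p = 0.9).

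BCL2L11 (ENSG00000153094; chromosome 2, 111119378 to 111168447, plus strand), the gene for BIM, was near the limit of detection. The EV libraries held 13 and 18 counts, the dnCEBP libraries 31 and 13 and the dnFOS libraries 12 and 4, or 0.387 to 1.15 CPM over all libraries. All groups overlapped. The edgeR interval of its log2 fold change ran from -0.8 to 1.59 in dnCEBP (adjusted p = 0.855) and from -1.52 to 1.18 in dnFOS (adjusted p = 0.902), so that a 2-fold rise in dnCEBP, or a 2-fold change either way in dnFOS, lay within the error and was not detectable at this depth. Of its exon bases 10.9% overlap the antisense gene MIR4435-2HG, which had 242 to 737 counts per library.

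Across the 10 genes, the median log2 fold change was 0.14 in dnCEBP and -0.07 in dnFOS, beside 0 for all genes tested in both. The median absolute log2 fold change was 0.16 in dnCEBP, equal to that of all genes, and 0.17 in dnFOS beside 0.25 for all genes. The libraries of the 2 groups did not overlap for 6 of the 10 genes in dnCEBP, where this held for 42.8% of all genes, and for 3 of the 10 in dnFOS, where it held for 56.7%. Both comparisons share the EV libraries. Between the peptides, 4 of the 10 genes were called in dnFOS against dnCEBP, 1 higher (BCL2) and 3 lower (BCL2L1, BCL2A1 and BBC3), beside 14.7% of all genes (6.83% higher and 7.84% lower). In that comparison 6 of the 10 did not overlap, beside 54.5% of all genes. The plot of fitted changes gives all 10 genes with their intervals.

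**Figure D3:**
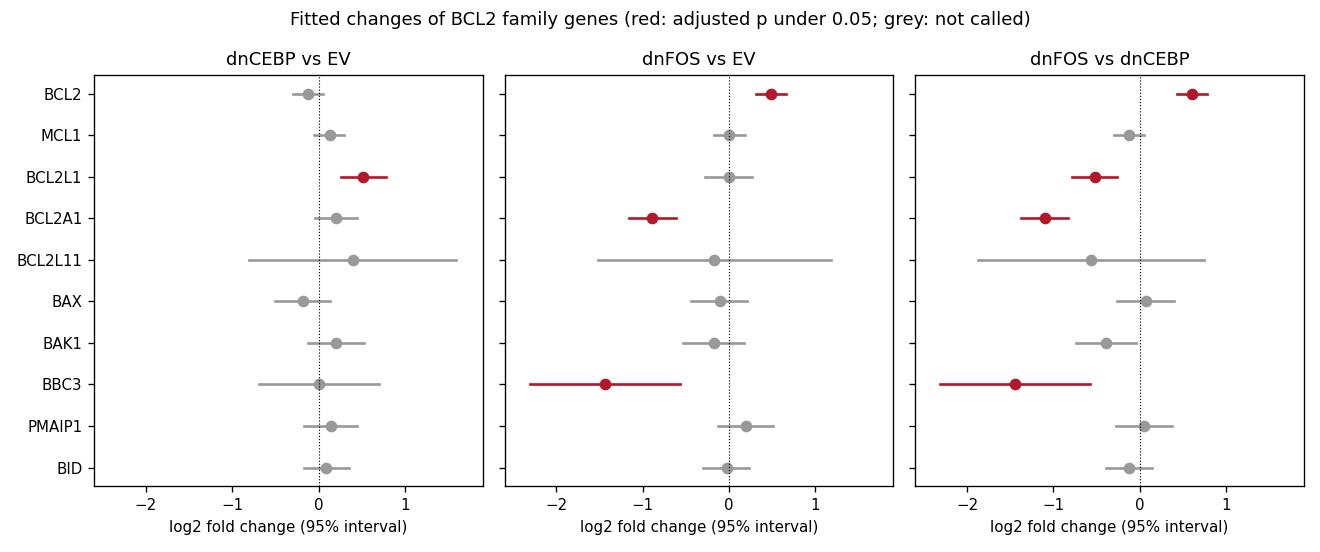
Log2 fold change of each gene with its 95% interval in dnCEBP against EV (left), dnFOS against EV (middle) and dnFOS against dnCEBP (right); red marks an edgeR adjusted p under 0.05. BCL2L1 is the red point on the left at 0.52, and in the middle BCL2 (0.48), BCL2A1 (-0.89) and BBC3 (-1.44) are red.

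**Figure D4:**
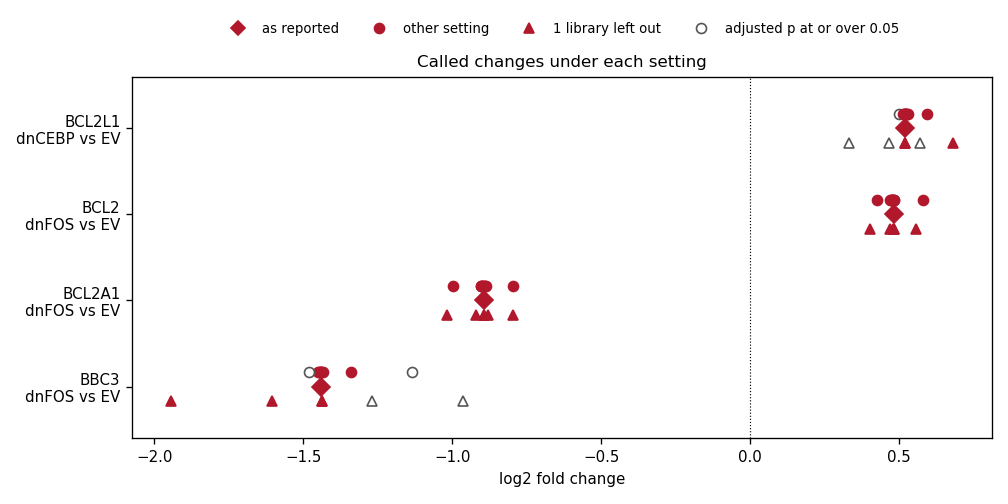
Log2 fold changes of the called genes as reported (diamonds), under other settings (circles) and with 1 library left out (triangles), filled where the adjusted p stayed under 0.05. BCL2 and BCL2A1 are filled throughout, while BCL2L1 spans 0.332 to 0.679 and BBC3 -1.943 to -0.965 over the libraries left out, with open points in both.

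Promoter windows were read from RefSeq (GRCh38.p14), each with 250 bases before and 50 from the start site on. For 9 of the 10 genes, all but MCL1, there were 14 windows in all. They were searched on both strands for AP-1 (TGACTCA or TGAGTCA), cyclic AMP response (TGACGTCA), C/EBP (TTGCNNAA or TTNNGCAA), RUNX (TGTGGT or ACCACA) and NF-kappaB letters (GGGA and CC, or GG and TCCC, with any 4 bases between). Of the windows of all 35116 promoters, 4.95% held the AP-1 letters, 1.85% the cyclic AMP response letters, 10.5% the C/EBP, 13.1% the RUNX and 25.6% the NF-kappaB letters. AP-1 letters were found in 1 gene, BBC3, 113 bases before the RefSeq start, and C/EBP and cyclic AMP response letters in 0 of the 9. RUNX letters were found in BCL2 and BCL2L1, and NF-kappaB letters in BCL2, PMAIP1 and BID. A gene was counted if any of its windows matched, and not every window of BCL2L1 or BID did. The shares of all promoters are per window. A match is a description of letters, and no binding was measured here. The stretches of BBC3, lower in dnFOS, and BCL2L1, higher in dnCEBP, are shown because they are the called genes with AP-1 or RUNX letters upstream of both the RefSeq start and the gene start in GENCODE. Capitals mark the AP-1 letters in BBC3 (chr19:47232767-47232917, 151 bases, minus strand) and the RUNX letters in BCL2L1 (chr20:31723990-31724213, 224 bases, minus strand).
BBC3: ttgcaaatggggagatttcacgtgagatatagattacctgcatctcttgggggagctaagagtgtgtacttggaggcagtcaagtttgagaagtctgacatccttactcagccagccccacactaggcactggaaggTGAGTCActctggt
BCL2L1: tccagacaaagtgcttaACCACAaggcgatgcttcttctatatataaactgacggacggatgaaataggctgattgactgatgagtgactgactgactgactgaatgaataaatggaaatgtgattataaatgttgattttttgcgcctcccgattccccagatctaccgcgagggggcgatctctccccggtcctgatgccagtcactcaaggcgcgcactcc

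Genes whose centred log2 CPM over the 6 libraries lay closest to BBC3 were PTGIR, NOL3 and COL6A2, with root mean square differences of 0.089, 0.122 and 0.158. For BCL2A1 they were IGFBP4 (0.051), FLOT1 (0.058) and the pseudogene GAPDHP1 (0.06), among 12753 genes with a mean of at least 1 CPM. These genes were picked for likeness over the same libraries, so their changes were bound to lie near those of BBC3 or BCL2A1 and are no separate result. This holds for NOL3, with a log2 fold change of -1.55 in dnFOS, which encodes ARC, a protein that inhibits apoptosis.

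The surrounding pathway was described with lists of genes around these 10. The counts called in each list stand beside 1.07% of all genes tested in dnCEBP and 15.0% in dnFOS, and were not tested against these shares. Counts of genes with an unadjusted p under 0.05 have no such share beside them, since it was not computed for all genes. Of 8 tested genes of 13 in the rest of the BCL2 family, 1 rose in dnCEBP and 0 fell. It was BNIP3L, a mitophagy receptor (log2 fold change 0.37 ± 0.09, edgeR adjusted p = 0.0306). In dnFOS 2 fell and 0 rose. They were the BH3-only gene BMF (-0.99 ± 0.28, edgeR adjusted p = 0.0158) and the mitophagy gene BNIP3 (-0.37 ± 0.09, adjusted p = 0.00609). The median log2 fold change of the list was -0.02 in dnCEBP and -0.41 in dnFOS, beside 0 for all genes. BNIP3L was not called with library totals alone (adjusted p = 0.0517) or without dnCEBP replicate 2 (log2 fold change 0.241, adjusted p = 0.747), EV replicate 1 (adjusted p = 0.17) or EV replicate 2 (adjusted p = 0.246). BMF was not called with limma-voom (adjusted p = 0.0585), without dnFOS replicate 2 (0.188) or without EV replicate 1 (0.136), nor was BNIP3 without dnFOS replicate 1 (log2 fold change -0.232, adjusted p = 0.113) or EV replicate 1 (0.0837).

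Downstream of the mitochondria, 14 of 15 listed release factors and caspases were tested. Of all genes tested, 1.07% were called in dnCEBP and 15.0% in dnFOS. In dnCEBP 0 were called by edgeR, DESeq2 or limma-voom, and 3 had an unadjusted edgeR p under 0.05 (median log2 fold change 0.12). The share of all genes under that unadjusted threshold was not computed. In dnFOS 1 rose, CYCS, the gene for cytochrome c (0.51 ± 0.10, edgeR adjusted p = 0.000564), and 1 fell, the channel gene VDAC2 (-0.28 ± 0.09, adjusted p = 0.0286), with a list median of 0.17. VDAC2 lost its call with library totals alone (adjusted p = 0.135) and without any of the dnFOS or EV libraries in turn (adjusted p of 0.0674 and 0.0675 for dnFOS replicates 1 and 2, and 0.153 and 0.087 for EV replicates 1 and 2). Of 7 inhibitors of apoptosis, 0 were called in dnCEBP by any of the 3 tools, with 2 at an unadjusted edgeR p under 0.05 (median 0.05), and in dnFOS 2 rose and 0 fell (median 0.11). These were XIAP, which blocks caspases (0.34 ± 0.11, edgeR adjusted p = 0.0348), and BIRC2, a ubiquitin ligase of the TNF pathway (0.39 ± 0.10, adjusted p = 0.00784). Removing the GC and length trend left neither called (XIAP 0.152, adjusted p = 0.301; BIRC2 0.191, adjusted p = 0.122). XIAP was also not called with DESeq2 (adjusted p = 0.0559) or limma-voom (0.0529), nor without dnFOS replicate 2 (0.218, adjusted p = 0.343), EV replicate 1 (adjusted p = 0.304) or EV replicate 2 (adjusted p = 0.0584). BIRC2 was not called without dnFOS replicate 2 (adjusted p = 0.05) or EV replicate 1 (0.0936).

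Of 10 tested genes of 11 for death receptors and their adaptors, 0 were called in dnCEBP by edgeR and DESeq2 and 1 by limma-voom. Of all genes tested, 1.07% were called in dnCEBP by edgeR at the adjusted threshold. By edgeR 3 listed genes had an unadjusted p under 0.05 there (median log2 fold change -0.04), a count with no all-gene share to stand beside. In dnFOS 3 fell and 0 rose (median -0.18), beside 7.76% of all genes lower and 7.24% higher. TNFRSF10D, a decoy receptor for TRAIL, fell by 1.04 (log2 fold change -1.04 ± 0.19, edgeR adjusted p = 0.000315). TNFRSF10B, the TRAIL receptor DR5, stood at -0.80 ± 0.18 on the same scale (edgeR adjusted p = 0.00268). Both kept their calls in 15 of 15 alternatives. The third, the TNF receptor gene TNFRSF1A (-0.33 ± 0.10, edgeR adjusted p = 0.0309), did not keep its call with library totals alone (adjusted p = 0.138), limma-voom (0.0512) or the GC content and length trend removed (0.187). It was also lost without dnFOS replicate 2 (log2 fold change -0.204, adjusted p = 0.341), EV replicate 1 (adjusted p = 0.242) or EV replicate 2 (adjusted p = 0.0509).

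Of 9 genes for turnover of the MCL1 protein, 0 were called in either comparison by edgeR, DESeq2 or limma-voom, with 1 at an unadjusted edgeR p under 0.05 in each (median log2 fold change -0.03 in dnCEBP and 0.08 in dnFOS). Of 17 listed transcriptional regulators of the family, 16 were tested. In dnCEBP 1 fell, MYC (-0.68 ± 0.09, edgeR adjusted p = 4.76e-05), and 0 rose (median -0.03). In dnFOS 4 fell and 1 rose (median -0.22), beside 7.76% of all genes lower and 7.24% higher. DDIT3, the gene for the stress factor CHOP, stood at -1.53 ± 0.11 on the log2 scale (edgeR adjusted p = 1.16e-10), NFKBIA, the NF-kappaB inhibitor, -0.79 ± 0.12 (adjusted p = 5.53e-05), and ATF4, the factor of the integrated stress response, -0.56 ± 0.08 (adjusted p = 3.5e-05). MYC, DDIT3, NFKBIA and ATF4 were called in 15 of 15 alternatives. RUNX1 rose by 0.51 ± 0.11 (edgeR adjusted p = 0.00287) and was not called without dnFOS replicate 2 (0.285, adjusted p = 0.116). RELA, an NF-kappaB subunit named outside the naming rule (-0.39 ± 0.14, edgeR adjusted p = 0.0473), lost its call with library totals (adjusted p = 0.161), DESeq2 (0.0736), limma-voom (0.0901) and the GC trend removed (0.179). Without dnFOS replicate 1 (adjusted p = 0.0696), dnFOS replicate 2 (0.184) or EV replicate 2 (log2 fold change -0.226, adjusted p = 0.422) it was not called either. The plot of pathway lists shows every tested gene of the lists described.

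**Figure D5:**
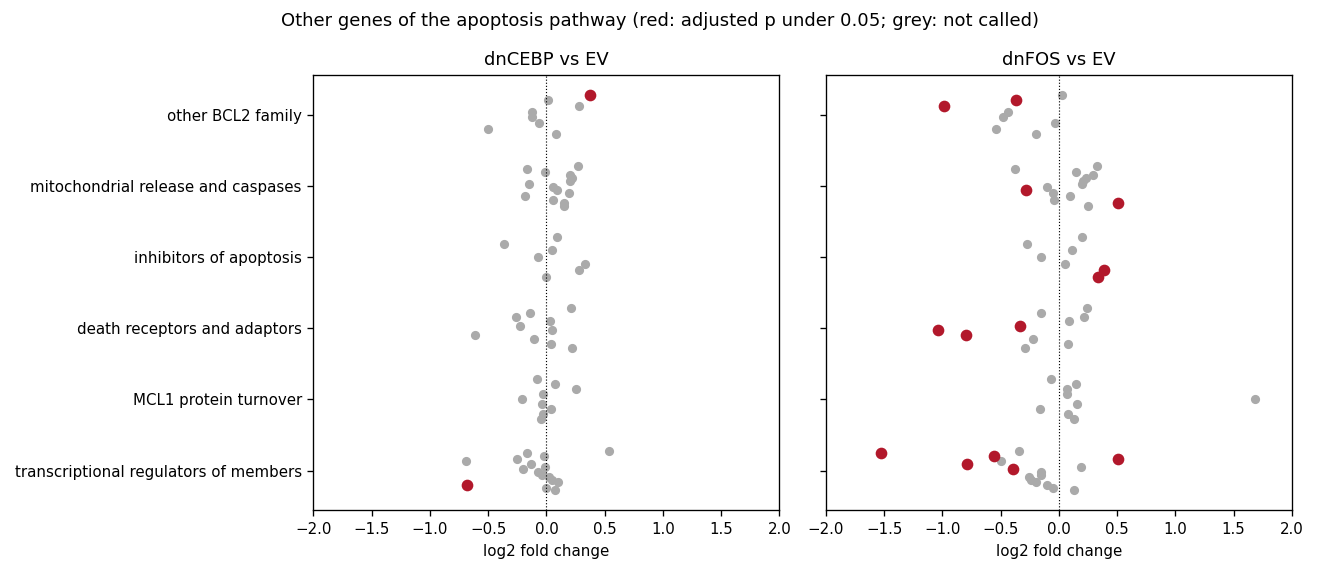
Log2 fold change of each tested gene of the 6 pathway lists described in dnCEBP (left) and dnFOS (right) against EV, 1 point per gene, red where the edgeR adjusted p was under 0.05. BNIP3L and MYC are the red points on the left, and on the right the red points run from -1.53 (DDIT3) to 0.51 (CYCS and RUNX1).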

How the data were processed

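RNA was sequenced from 6 KO52 libraries, per the labels from total RNA depleted of ribosomal RNA, as paired-end reads. Each library has 1 deposited table of whole-number counts by gene, without normalization, which the authors made, per the submitters' processing notes, with Trimmomatic, HISAT2 and featureCounts (Subread) on hg38. Versions, annotation, strand setting and the treatment of shared reads were not given in the sources used here. IDs were matched to GENCODE release 29 (58394 of 60612 matched, 58477 with a symbol). Groups and replicate numbers came from the titles.

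Testing used edgeR 4.0.16 (R 4.3.3). Of 60612 genes, 27870 had at least 1 count, and filterByExpr (minimum count 10) kept 15395. Libraries were scaled by TMM. A robust quasi-likelihood fit took a mean per group over all 6 libraries, with 3 contrasts tested two-sided. Standard errors came from the fitted change and its F statistic. Genes named were the 10, up to 4 called genes per list and comparison, and the closest 3 to BBC3 and BCL2A1. A further gene list is not reported here. The genes and lists were chosen with earlier results of these data known. Alternatives used DESeq2 1.42.0, limma 3.58.1 and mgcv 1.9.3. The scripts were tested on simulated data.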

Additional observations from a re-analysis of the deposited data

How the results depend on the processing

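The number of all genes called in dnCEBP against EV, 165, was 255 with no low-count filter, 297 with only the 4 libraries compared, 284 after removal of a trend on GC content and length, and 33 to 314 with 1 library left out. In dnFOS against EV it was 972 to 2426 with 1 library left out (2309 with all), and in dnFOS against dnCEBP 1182 to 2262 (2259 with all). Of the 10 genes, 0 were called in dnCEBP with library totals alone and 0 to 1 with 1 library left out, 2 to 3 in dnFOS against EV, and 2 to 4 in dnFOS against dnCEBP. With library totals alone, 5 of the 10 did not overlap in dnFOS against EV. The share of all genes not overlapping was not computed on that scale, so this count has nothing to stand beside. Totals alone moved the all-gene median of log2 fold changes to 0.10 in dnFOS against EV and 0.14 against dnCEBP, and the share of calls that were lower from 51.7% to 26.2% and from 53.4% to 25.4%. BCL2L11 has no value where a mean of at least 1 CPM was required, and no adjusted p from DESeq2. The cause of these differences was not tested.

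Several uncalled changes crossed 0. In dnCEBP against EV, BBC3 was -0.016 with library totals and -0.149 to 0.177 with 1 library left out, BCL2L11 -0.12 to 0.745 and BID -0.078 to 0.274. In dnFOS against EV, MCL1 was -0.008 with no filter, -0.002 with median-of-ratios factors or DESeq2, -0.005 with 4 libraries, -0.042 with the GC trend removed and -0.036 to 0.031 with 1 library left out. BCL2L1 was 0.094 with totals, 0.151 with the GC trend removed and -0.068 to 0.047 with 1 library left out. BAX was 0.11 and BAK1 0.05 with the GC trend removed, and BID 0.066 with totals. With 1 library left out BAK1 was -0.571 to 0.079, BCL2L11 -0.809 to 0.195, PMAIP1 -0.156 to 0.499 and BID -0.21 to 0.15. In dnFOS against dnCEBP, MCL1 was 0 with totals, PMAIP1 -0.006 with limma-voom and -0.294 to 0.361 with 1 library left out, BAX -0.038 to 0.198 and BID -0.278 to 0.003.

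Same-numbered replicates showed little shared deviation over all genes tested (correlations of 0.0879, 0.0174 and 0.0281). The numbers were taken as names only, but these correlations cannot settle whether replicates were paired. With the replicate block 488 genes were called in dnCEBP against EV (165 without), 3172 in dnFOS against EV (2309 without) and 3013 in dnFOS against dnCEBP (2259 without). No call of the 10 genes changed with it, and no listed gene called against EV lost its call; the listed genes that were not called were not examined under it.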
